A study of Mus musculus with 4 samples.

Results

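The type I interferon-stimulated genes form a set of 31 mouse genes, each found by its symbol among the 54532 genes of the deposited table. All 31 passed the filter on low counts and were among the 13932 genes tested. They were measured in macrophages sorted from glioblastoma xenografts in mice by a gate that kept DAPI-negative cells with CD45 and CD11b and without Gr1. Bulk RNA sequencing compared 2 libraries labelled as controls with 2 labelled as MK-8931-treated. MK-8931 (verubecestat) inhibits BACE1, a beta-secretase. The labels name the strain only as GBM mice, and give no mouse genotype, age or sex. They describe a treatment of 3 days with MK-8931 or vehicle for glioma stem cells, not for mice, so how the macrophages met the drug is not settled. Nothing in them ties each library to its own animal, and the p-values below then reflect only how far these libraries scatter, which may be technical.

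Type I interferons are secreted cytokines that bind a receptor made of IFNAR1 and IFNAR2. The kinases JAK1 and TYK2 on that receptor phosphorylate STAT proteins, among them STAT2, which joins IRF9 in the complex ISGF3. ISGF3 binds interferon-stimulated response elements (ISREs) in the promoters of antiviral and regulatory genes. Macrophages hold a basal level of these genes and raise it when nucleic acid sensors report foreign or misplaced nucleic acid.

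Library totals lay between 18257930 and 20179875 counts, and the 31 genes had from 60 to 6415 counts in a library. The macrophage markers Csf1r and Cd68 were abundant in every library (27400 to 35776 counts each). The summed level of 10 pan-macrophage markers was 9853 and 12293 CPM in controls against 9256 and 9409 CPM in the MK-8931 libraries, where CPM is the count scaled to library size. Of the 10, Itgam, which encodes the gated CD11b, rose (log2 fold change 0.75, edgeR adjusted p = 0.0485) and 0 fell. At unadjusted p under 0.05 in edgeR's test 3 were lower and 2 higher. For 5, both MK-8931 libraries lay below both controls, and for 2 above both. Over all genes tested, 0.861% were called higher and 0.136% lower. At unadjusted p under 0.05 in edgeR's test 4.25% of all genes were lower and 6.53% higher. Both MK-8931 libraries lay below both controls for 20.0% of all genes tested and above both for 21.2%. Summed levels of neutrophil, monocyte and microglia markers differed between the groups. These lists were chosen with earlier results of these data known. The summed level of 20 neutrophil markers was 123 and 109 CPM in controls against 697 and 1131 CPM in the MK-8931 libraries, and 12 of the 14 tested were called higher. Ly6g, a defining neutrophil gene, had 0, 0, 0 and 14 counts in control 1, control 2, MK-8931 1 and MK-8931 2, and Elane had 0 in all 4. For 8 monocyte markers the sum was 201 and 132 CPM in controls against 476 and 553 CPM in the MK-8931 libraries, with 5 called higher. For 10 microglia markers it was 3007 and 3577 against 2452 and 2704 CPM, with 0 of 9 tested called (5 lower at unadjusted p under 0.05 in edgeR's test). The part of these cells in the values below was not tested. In bulk samples, fewer cells of a type and less RNA per cell cannot be told apart.

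Most of the interferon-stimulated genes stood slightly higher with MK-8931, and none passed the test over all genes. Genes of the oligoadenylate synthetase family (Oas2, Oas3, Oasl2), the membrane protein gene Ifitm3 and the transcription factor genes Stat2, Irf9 and Irf7 had both MK-8931 libraries above both controls. The Ifit and Mx genes overlapped between the groups. Oasl1 and Bst2 were lower in both MK-8931 libraries. The median log2 fold change was 0.23 for the 31 genes and 0.00 for all 13932 genes tested, and the 31 values ran from −0.47 (Oasl1) to 0.91 (Oas2). Of the 31, 23 were above 0 (74.2%, against 49.6% of all genes).

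By edgeR's quasi-likelihood test with Benjamini-Hochberg adjustment over all genes at a threshold of 0.05, 0 of 31 genes rose and 0 fell. Over all genes 0.861% were called higher and 0.136% lower. At unadjusted p under 0.05, 10 of the 31 were higher (6.53% of all genes) and 2 lower (4.25% of all genes). DESeq2 called 4 of the 31 higher (Oasl2, Ifitm3, Oas3 and Trim30a) and 0 lower, against 1.88% and 0.682% of all genes. Of the 31, limma-voom called Oasl2 alone, as higher, and over all 13932 genes it called 124 higher and 30 lower. The authors' deposited table called Oasl2 (adjusted p = 8.92e-04) and Ifitm3 (adjusted p = 0.0107) higher and none of the 31 lower, where 1.08% and 0.420% of its 22381 genes were called. The count of 0 thus depended on the tool. It also depended on control 1, without which edgeR called 7 genes higher and Bst2 lower. Calls over all genes were also more numerous in that fit, at 520 higher and 243 lower of 14861 tested, against 120 and 19 of 13932 with all libraries. Without control 2 it called Oasl2 alone of the 31, and 174 genes higher and 47 lower of 15050.

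Both MK-8931 libraries were above both controls for 17 of the 31 genes, or 54.8%, and below both for 3, or 9.68%. The shares over all genes tested were 21.2% and 20.0%. The other 11 genes overlapped between the groups. The summed level of the 31 genes was 1535 and 1437 CPM in controls against 1724 and 1702 CPM in the MK-8931 libraries.

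**Figure D1:**
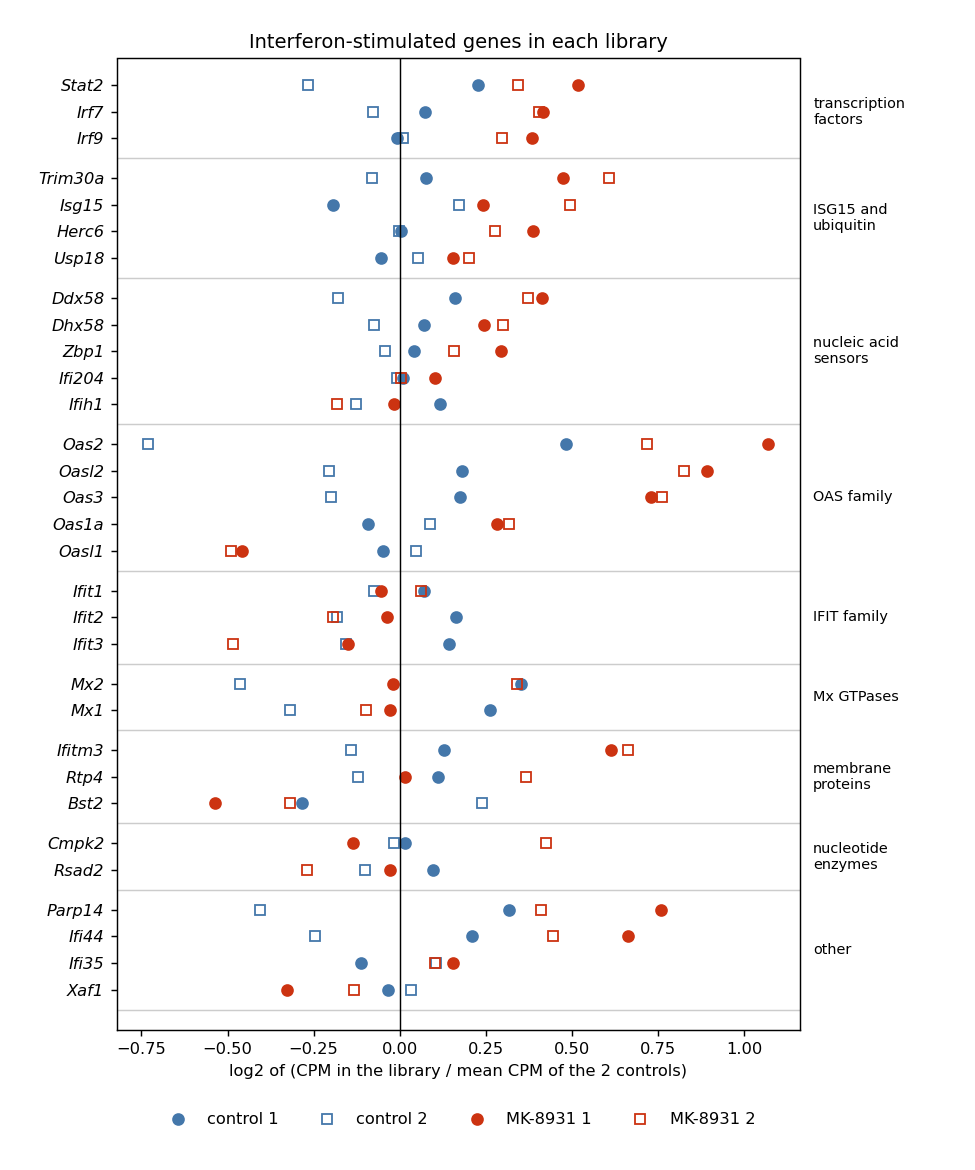
Each row is an interferon-stimulated gene and each marker a library, placed at the log2 of its CPM over the mean CPM of the 2 controls, with genes grouped by role. The transcription factor genes and Oas2, Oas3, Oasl2, Ifitm3 and Trim30a have both MK-8931 markers to the right of both controls, the Ifit and Mx rows overlap, and Oasl1 has both to the left.

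Levels between genes were compared as FPKM, the authors' count per gene length and library size. Bst2, which encodes tetherin, a membrane protein that holds budding virus at the cell surface, had the highest mean over the 4 libraries at 268 FPKM, above 98.9% of the tested genes. Ifitm3, an endosomal membrane protein that hinders virus entry, followed at 166 FPKM. The next were Oas1a at 32.0, Irf7 at 26.5 and Trim30a at 26.3 FPKM, whose ranges over the 4 libraries overlapped one another. The lowest were Herc6, a ligase that attaches ISG15, at 1.33 FPKM and Ifi44 at 0.729 FPKM, with no overlap of their libraries. The median tested gene had 4.67 FPKM.

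**Figure D2:**
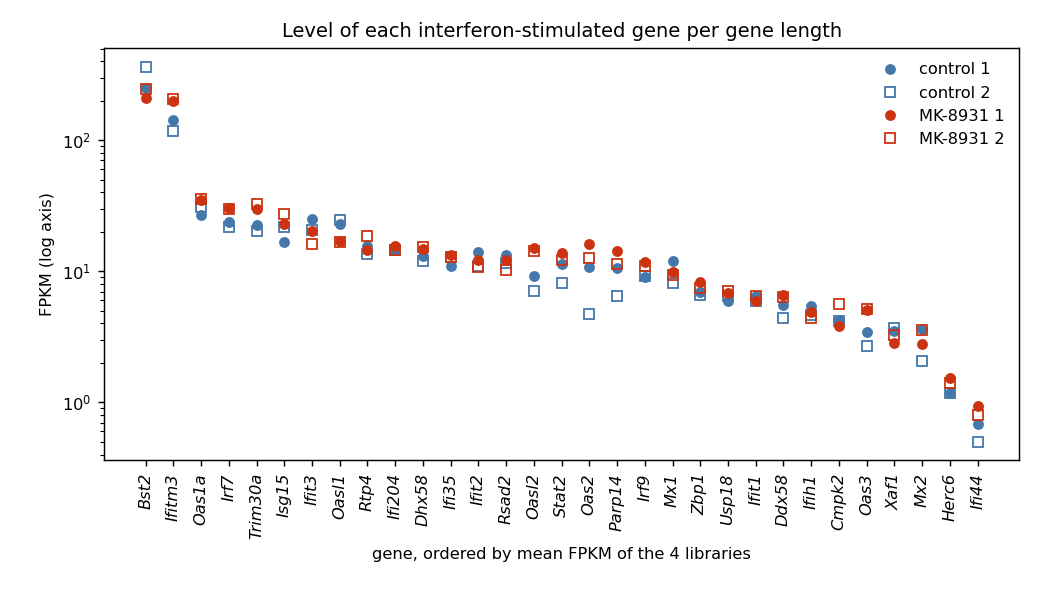
FPKM of each interferon-stimulated gene on a log axis, with a marker for each of the 4 libraries and genes ordered by their mean. Bst2 and Ifitm3 stand apart at means of 268 and 166 FPKM, and Ifi44 is lowest at 0.729 FPKM.

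Promoters of the set are shown because the genes are grouped as targets of interferon, while their levels differed in size and direction here. RefSeq promoter sequences (GRCm38.p6, 250 bases before and 50 after the start site) matched 22 of the 31 genes, with 25 entries. No entry matched Dhx58, Ifi204, Mx1, Mx2, Oas2, Parp14, Rtp4, Usp18 and Zbp1. The ISRE core, read as GAAA, any 2 bases and GAAA again, was searched on both strands, and overlapping matches were counted. It was present in 13 of 25 entries (52.0%), from 12 genes, and in 3.44% of all 32851 promoter entries. The GAS element TTCNNNGAA, which reads the same on both strands, was present in 5 entries (20.0%) and in 8.30% of all. In Ifitm3 and Bst2 an ISRE match overlapped a GAS match. The 3 printed first had the largest fitted differences among genes with an entry, and Ifit1 was added after its values were seen because its groups overlapped. Each runs 5′ to 3′ on the gene's strand, from 250 bases before to 30 bases after the RefSeq start, with ISRE matches in capitals.
Oasl2, chr5:114896684-114896963, plus strand: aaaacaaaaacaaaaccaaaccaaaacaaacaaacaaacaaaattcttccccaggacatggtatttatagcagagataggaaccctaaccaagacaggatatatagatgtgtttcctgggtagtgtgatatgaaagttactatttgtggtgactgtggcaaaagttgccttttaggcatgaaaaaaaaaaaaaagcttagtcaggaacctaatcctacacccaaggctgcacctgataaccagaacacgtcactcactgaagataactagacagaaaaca
Oas3, chr5:120777630-120777909, minus strand: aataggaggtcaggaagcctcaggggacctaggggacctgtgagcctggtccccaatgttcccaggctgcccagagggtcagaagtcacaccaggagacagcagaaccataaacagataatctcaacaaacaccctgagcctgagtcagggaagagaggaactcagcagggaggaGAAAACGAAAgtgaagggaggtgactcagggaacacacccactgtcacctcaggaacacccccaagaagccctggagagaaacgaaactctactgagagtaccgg
Ifitm3, chr7:141010715-141010994, minus strand: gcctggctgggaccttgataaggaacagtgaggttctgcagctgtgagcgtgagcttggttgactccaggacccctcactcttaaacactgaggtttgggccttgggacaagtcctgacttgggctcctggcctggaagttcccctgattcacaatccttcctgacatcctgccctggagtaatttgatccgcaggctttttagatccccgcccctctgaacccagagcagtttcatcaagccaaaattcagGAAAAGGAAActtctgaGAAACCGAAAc
Ifit1, chr19:34640639-34640918, plus strand: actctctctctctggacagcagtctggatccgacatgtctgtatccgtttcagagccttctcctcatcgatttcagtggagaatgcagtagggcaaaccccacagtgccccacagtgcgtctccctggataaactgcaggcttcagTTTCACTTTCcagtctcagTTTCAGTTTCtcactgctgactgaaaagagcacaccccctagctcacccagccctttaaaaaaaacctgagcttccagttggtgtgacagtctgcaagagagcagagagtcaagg

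The promoter of Oas3 held 1 match, which began 75 bases before the start. That of Ifit1 held 2 matches on the opposite strand, beginning 104 and 85 bases before it, and that of Ifitm3 held 2 matches just after its annotated start. The window of Oasl2 held none. The 12 genes with a match had log2 fold changes from −0.42 (Bst2) to 0.75 (Oas3), with 8 above 0 and 4 below. The 10 genes without one ran from −0.47 (Oasl1) to 0.86 (Oasl2), with 7 above 0 and 3 below. A match describes these letters only and was not read as a site.

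All 3 transcription factor genes (Stat2, Irf9 and Irf7) had both MK-8931 libraries above both controls, as did 21.2% of all genes tested. The counts by role here and below are parts of the 17 of 31 genes counted above. The median log2 fold change of the 3 genes was 0.41. Stat2, a subunit of ISGF3 (chromosome 10, 128270559 to 128292849, GRCm38, plus strand), was at 67.7 and 48.1 CPM in controls against 82.8 and 73.4 CPM in the MK-8931 libraries (log2 fold change 0.43, SE 0.18, edgeR adjusted p = 0.437). Control 1 and MK-8931 2 lay close together, and the log2 fold change was 0.69 without control 1 and 0.21 without control 2. Irf9, the DNA-binding subunit of ISGF3, was at 48.6 and 49.2 CPM in controls against 63.8 and 60.1 CPM in the MK-8931 libraries (0.34, SE 0.14, edgeR adjusted p = 0.410). Irf7, which amplifies interferon production, was at 90.8 and 81.8 CPM in controls against 115 and 114 CPM in the MK-8931 libraries (0.41, SE 0.13, edgeR adjusted p = 0.266). For Irf9 and Irf7 the gap between the groups was wider than the gap within either. Irf7 overlaps Phrf1 on the other strand and Irf9 overlaps Rnf31 on the same strand. These neighbours had 74.3% and 83.4% as many counts, so reads at the shared ends are uncertain.

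The 4 genes of the ISG15 system and of ubiquitin ligases also had both MK-8931 libraries above both controls, as did 21.2% of all genes. ISG15 is a ubiquitin-like protein that is attached to other proteins, and USP18 removes it and also damps the interferon receptor. Isg15 was at 12.8 and 16.5 CPM in controls against 17.3 and 20.7 CPM in the MK-8931 libraries (log2 fold change 0.37, SE 0.21, edgeR adjusted p = 0.609). Usp18 was at 16.6 and 17.9 CPM in controls against 19.2 and 19.8 CPM in the MK-8931 libraries (0.18, SE 0.18). Herc6 was at 11.0 and 10.9 CPM in controls against 14.3 and 13.3 CPM in the MK-8931 libraries (0.33, SE 0.21, edgeR adjusted p = 0.663). For Isg15 the lower MK-8931 library was nearly level with the higher control, and its value was 0.19 without control 1 and 0.57 without control 2. Trim30a, a TRIM ubiquitin ligase gene (chromosome 7, 104409025 to 104465193, minus strand), was at 93.3 and 83.8 CPM in controls against 123 and 135 CPM in the MK-8931 libraries (0.54, SE 0.13, edgeR adjusted p = 0.131). It has close copies in Trim30b and Trim30d, with which reads could be shared.

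Of the 5 nucleic acid sensor genes, 3 were above both controls in both MK-8931 libraries and 2 overlapped. Of all genes tested, 21.2% were above both controls in both MK-8931 libraries. Ddx58, which encodes the RNA sensor RIG-I, was at 39.0 and 30.9 CPM in controls against 46.5 and 45.2 CPM in the MK-8931 libraries (log2 fold change 0.39, SE 0.17, edgeR adjusted p = 0.437). Dhx58 (LGP2, a regulator of RIG-I-like sensors) and Zbp1 (a sensor of Z-form nucleic acid) were also above both controls in both MK-8931 libraries, at 0.27 and 0.23. Ifih1, which encodes MDA5, the sensor of long double-stranded RNA, was at 44.4 and 37.6 CPM in controls against 40.5 and 36.1 CPM in the MK-8931 libraries, so its groups overlapped (−0.10, SE 0.16). Ifi204 is a DNA sensor gene from a family of related genes on chromosome 1. Its level was 52.2 and 51.5 CPM in controls against 55.6 and 51.9 CPM in the MK-8931 libraries (0.05, SE 0.14).

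The largest differences were in the OAS family. OAS enzymes make 2′-5′ oligoadenylates, which activate RNase L to cut RNA. OASL proteins resemble them, and mouse OASL1 is known to hold back translation of Irf7. Oasl2 (chromosome 5, 114896936 to 114912234, plus strand) was at 59.0 and 45.1 CPM in controls against 96.6 and 92.2 CPM in the MK-8931 libraries, or 52.0 ± 9.79 against 94.4 ± 3.13 CPM (mean ± SD, n = 2). Its groups were well apart. The log2 fold change of 0.86 (SE 0.16) just missed the threshold (edgeR adjusted p = 0.0517), and with each library left out it lay between 0.68 and 1.06. It was past the threshold without control 1 (3.77e-05) and without control 2 (0.0398), and not without MK-8931 1 (0.157) or MK-8931 2 (edgeR adjusted p = 0.124). The promoter window printed above held no ISRE match.

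Oas3 (chromosome 5, 120753098 to 120777661, minus strand) was at 24.6 and 19.0 CPM in controls against 36.1 and 36.9 CPM in the MK-8931 libraries (log2 fold change 0.75, SE 0.18, edgeR adjusted p = 0.125). Oas2, which lies 3245 bases from Oas3 on the same strand, was at 48.4 and 20.8 CPM in controls against 72.6 and 56.9 CPM in the MK-8931 libraries. Its controls differed by more than its MK-8931 libraries did, and the log2 fold change of 0.91 (SE 0.33, edgeR adjusted p = 0.342) became 1.63 without control 1 and 0.42 without control 2. Oas1a was at 51.0 and 57.8 CPM in controls against 66.1 and 67.7 CPM in the MK-8931 libraries (0.30, SE 0.14). It has near-identical copies in the same cluster, among them Oas1g, so the split of reads between them is uncertain.

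Oasl1, the gene next to Oasl2 (chromosome 5, 114923240 to 114937915, plus strand, 11006 bases away), went the other way. It was at 59.7 and 63.8 CPM in controls against 44.9 and 44.0 CPM in the MK-8931 libraries (log2 fold change −0.47, SE 0.14, edgeR adjusted p = 0.214). The groups did not overlap, and the value stayed between −0.53 and −0.43 with each library left out. In FPKM, Oasl1 was 2.48 and 3.46 times the level of Oasl2 in the controls and 1.14 and 1.17 times with MK-8931. That ratio was lower in each MK-8931 library than in either control, and with 2 libraries a group it was not tested.

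**Figure D3:**
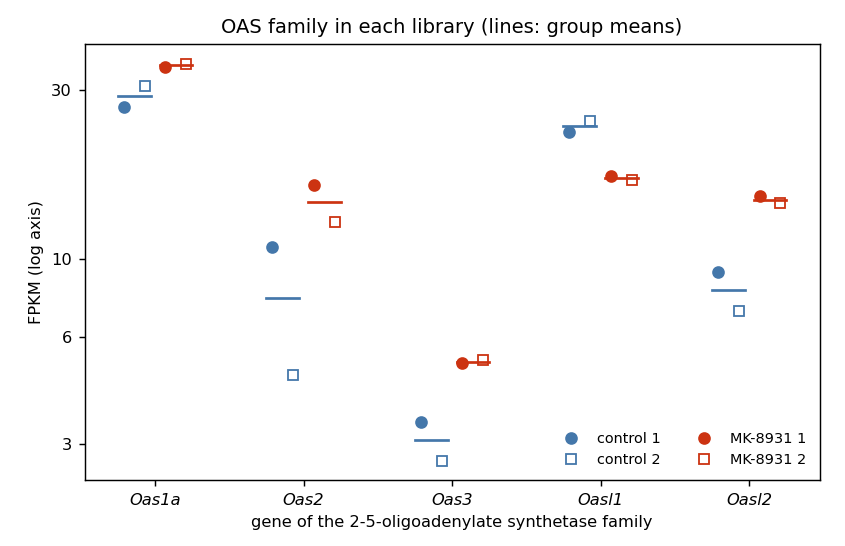
FPKM of the 5 OAS family genes on a log axis, with a marker for each library and a line at each group mean. Oas1a, Oas2, Oas3 and Oasl2 have both MK-8931 libraries above both controls, Oasl1 has both below, and the controls of Oas2 lie at 10.8 and 4.70 FPKM.

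The IFIT genes, which encode proteins that bind foreign RNA ends and are among the most inducible targets of interferon, lie together on chromosome 19 and were near 0 or lower. Ifit1 was at 17.4 and 15.7 CPM in controls against 16.0 and 17.3 CPM in the MK-8931 libraries (log2 fold change 0.00, SE 0.19). Ifit2 was at 55.0 and 43.2 against 47.9 and 43.0 CPM (−0.11, SE 0.17). Ifit3 was at 44.0 and 35.8 against 36.0 and 28.5 CPM (−0.31, SE 0.18, edgeR adjusted p = 0.637). All 3 overlapped between the groups. Rsad2 (viperin, an enzyme that makes a chain-terminating nucleotide) was at 57.6 and 50.2 against 52.8 and 44.7 CPM (−0.14, SE 0.16). Its neighbour Cmpk2, a nucleotide kinase gene, was at 17.8 and 17.4 against 16.0 and 23.6 CPM (0.17, SE 0.22).

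The Mx genes encode antiviral GTPases, and many laboratory mouse strains carry defective copies; the table lists Mx2 as a polymorphic pseudogene. Mx1 was at 45.8 and 30.7 CPM in controls against 37.4 and 35.7 CPM in the MK-8931 libraries, both inside the range of the controls (log2 fold change −0.06, SE 0.20). Mx2 was at 13.1 and 7.46 against 10.2 and 13.0 CPM, also inside that range (0.17, SE 0.30). The sign of Mx1 was reversed without control 1, at 0.24.

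Among the membrane proteins, Ifitm3 (chromosome 7, 141009586 to 141010770, minus strand) was at 96.5 and 80.0 CPM in controls against 135 and 140 CPM in the MK-8931 libraries, or 88.3 ± 11.6 against 137 ± 3.34 CPM (mean ± SD, n = 2). Its groups were apart, at a log2 fold change of 0.64 (SE 0.14, edgeR adjusted p = 0.0879). Bst2, also a known marker of plasmacytoid dendritic cells, was at 228 and 328 CPM in controls against 192 and 223 CPM in the MK-8931 libraries (−0.42, SE 0.18, edgeR adjusted p = 0.439). The highest MK-8931 library and the lowest control were nearly level, and the value was −0.67 without control 1 and −0.14 without control 2. Of 11 other plasmacytoid markers, Ly6d, Klk1 and Dntt had 0 counts in all 4 libraries and 0 of 5 tested were called (0 at unadjusted p under 0.05 in edgeR's test). Their summed level was 139 and 109 CPM in controls against 116 and 100 CPM in the MK-8931 libraries. Of the 5 tested, 3 had both MK-8931 libraries above both controls and 1 both below, against 21.2% and 20.0% of all genes. The median log2 fold change of the 5 was 0.54, and Siglech stands in this list and in the microglia list. Rtp4, a receptor trafficking gene, overlapped between the groups (0.20).

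Parp14, an ADP-ribosyltransferase gene, was at 99.2 and 60.2 CPM in controls against 135 and 106 CPM in the MK-8931 libraries (log2 fold change 0.59, SE 0.23, edgeR adjusted p = 0.379). Control 1 lay near MK-8931 2, and the value was 0.99 without control 1 and 0.28 without control 2. The other genes were Ifi44 (0.56), Ifi35 (0.13) and Xaf1, a pro-apoptotic gene (−0.23), with edgeR adjusted p from 0.637 to 0.882. Xaf1 had both MK-8931 libraries below both controls, at 16.5 and 17.3 CPM in controls against 13.4 and 15.4 CPM.

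**Figure D4:**
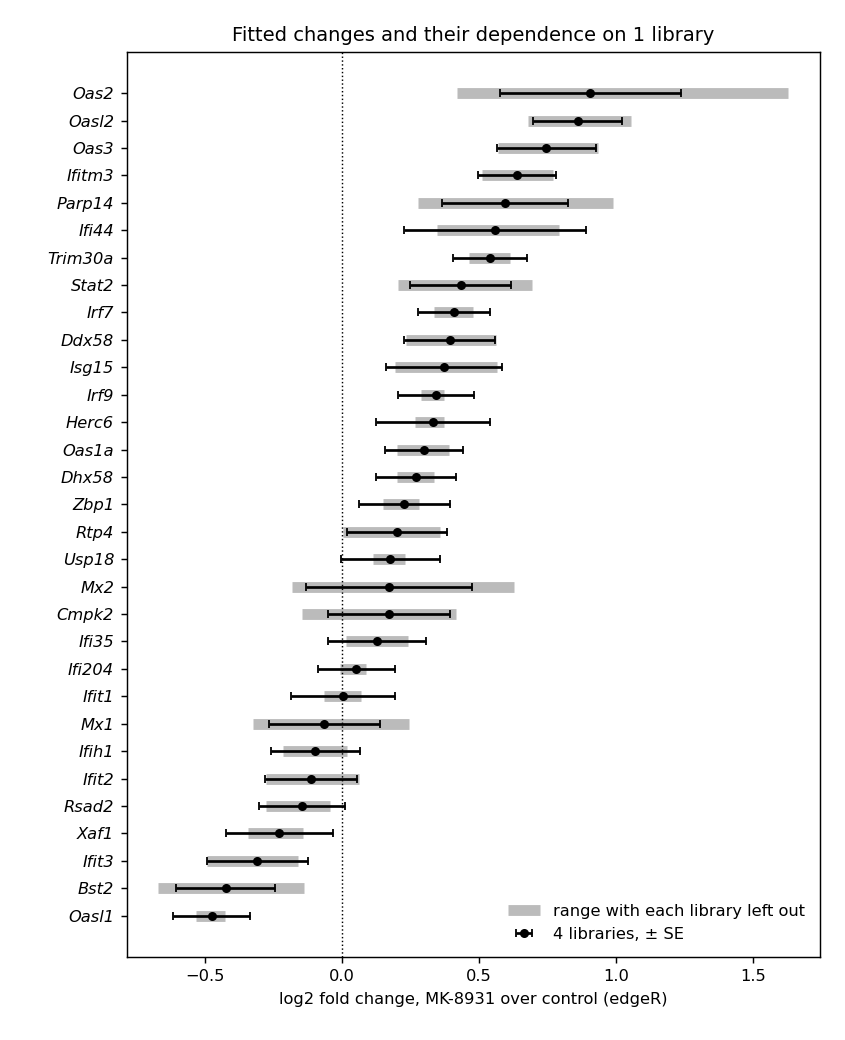
Fitted log2 fold change of each interferon-stimulated gene, MK-8931 over control, as a point with its SE, over a grey bar that spans the values with each library left out. The bars are widest for Oas2 (0.42 to 1.63) and lie on both sides of 0 for the 7 genes whose sign changed.

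The spread between libraries of the same group was as large as many of these differences. The median absolute log2 ratio of control 1 to control 2 was 0.23 for the 31 genes, and that of MK-8931 1 to MK-8931 2 was 0.13. Over the 9403 tested genes in the same range of mean level (4.49 to 243 CPM) these medians were 0.21 and 0.18. Control 1 was above control 2 for 23 of the 31 genes, or 74.2%, against 51.2% of all tested genes. MK-8931 1 was above MK-8931 2 for 18 of the 31, or 58.1%, against 49.1%.

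The rest of the pathway was read from 5 lists. The interferon genes themselves had few or no counts. Of 21 ligand genes, 19 had no count in any library, among them all listed interferon alpha genes, a level of at most 0.153 to 0.163 CPM (3 counts, counting error only). How reads shared by similar genes were counted is not given, and that level takes no account of it. Ifng had 1 count in all. Ifnb1, the interferon beta gene, had 14 and 20 counts in controls against 15 and 10 in the MK-8931 libraries (log2 fold change −0.43, SE 0.77, edgeR adjusted p = 0.915). Its groups overlapped.

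Of 10 genes of receptors and JAK-STAT signalling, 0 passed edgeR's test (2 higher and 0 lower at unadjusted p under 0.05). At that unadjusted p, 6.53% of all genes tested were higher and 4.25% lower. The median log2 fold change of the 10 was 0.21. The smallest p-values among higher values belonged to the interferon gamma receptor genes Ifngr2 (0.44, SE 0.13, edgeR adjusted p = 0.209) and Ifngr1 (0.34, SE 0.15, edgeR adjusted p = 0.444).

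Of 17 genes of nucleic acid sensing upstream of interferon, 1 rose and 0 fell, against 0.861% and 0.136% of all genes tested. That gene was Myd88, the adaptor of most Toll-like receptors and of the interleukin-1 receptor, at 33.9 and 35.8 CPM in controls against 59.9 and 59.6 CPM in the MK-8931 libraries (log2 fold change 0.78, SE 0.14, edgeR adjusted p = 0.0460). With either MK-8931 library left out it missed the threshold (edgeR adjusted p = 0.192 and 0.232), at a log2 fold change of 0.77 in both cases. Ikbke, a kinase that activates IRF3, had 0.53 (SE 0.15, edgeR adjusted p = 0.174). The lower values with the smallest p belonged to Tlr7, an endosomal RNA receptor (−0.27, SE 0.14), and Aim2, a DNA sensor of inflammasomes (−0.16, SE 0.17). The list median was 0.16.

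Of 13 tested negative regulators 0 passed edgeR's test (4 higher and 0 lower at unadjusted p under 0.05), and their median was 0.29. At that unadjusted p, 6.53% of all genes tested were higher and 4.25% lower. Samhd1, which hydrolyses deoxynucleotides, had a log2 fold change of 0.48 (SE 0.12, edgeR adjusted p = 0.141), and Ptpn6, the phosphatase SHP-1, also 0.48 (SE 0.14, edgeR adjusted p = 0.204). Socs1, an inhibitor of JAK kinases, was at 7.75 and 7.31 CPM in controls against 2.82 and 6.74 CPM in the MK-8931 libraries (−0.66, SE 0.40, edgeR adjusted p = 0.647). Its MK-8931 libraries differed by more than the nearer one differed from the controls.

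Of 61 other interferon-stimulated genes tested, 4 rose and 0 fell, where 0.861% of all genes were called higher. Their median was 0.29, and 33 of the 61 had both MK-8931 libraries above both controls, as did 21.2% of all genes. Trim30b, a copy of Trim30a, was at 3.34 and 4.19 CPM in controls against 23.6 and 42.0 CPM in the MK-8931 libraries (log2 fold change 3.12, SE 0.31, edgeR adjusted p = 0.00245). Ifitm1, in the same cluster as Ifitm3, was at 6.19 and 2.76 CPM in controls against 23.5 and 39.1 CPM in the MK-8931 libraries (2.81, SE 0.38, edgeR adjusted p = 0.0120). Both rises were larger than any of the 31 values, and in both genes MK-8931 2 was the highest library.

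Helz2, a helicase gene, was at 44.5 and 30.8 CPM in controls against 80.6 and 81.5 CPM in the MK-8931 libraries (log2 fold change 1.11, SE 0.19, edgeR adjusted p = 0.0349, and 0.0505 without MK-8931 2). Ms4a4c, a membrane protein gene, was at 19.0 and 16.6 CPM in controls against 33.3 and 41.6 CPM in the MK-8931 libraries (1.07, SE 0.18, edgeR adjusted p = 0.0360, and 0.199 without MK-8931 2). The lower values with the smallest p were those of Ifi27 (−0.35, SE 0.18) and Ogfr (−0.22, SE 0.14). The neutrophil and monocyte sums given above were higher in the same libraries as these 4 rises, and their part in them was not tested.

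**Figure D5:**
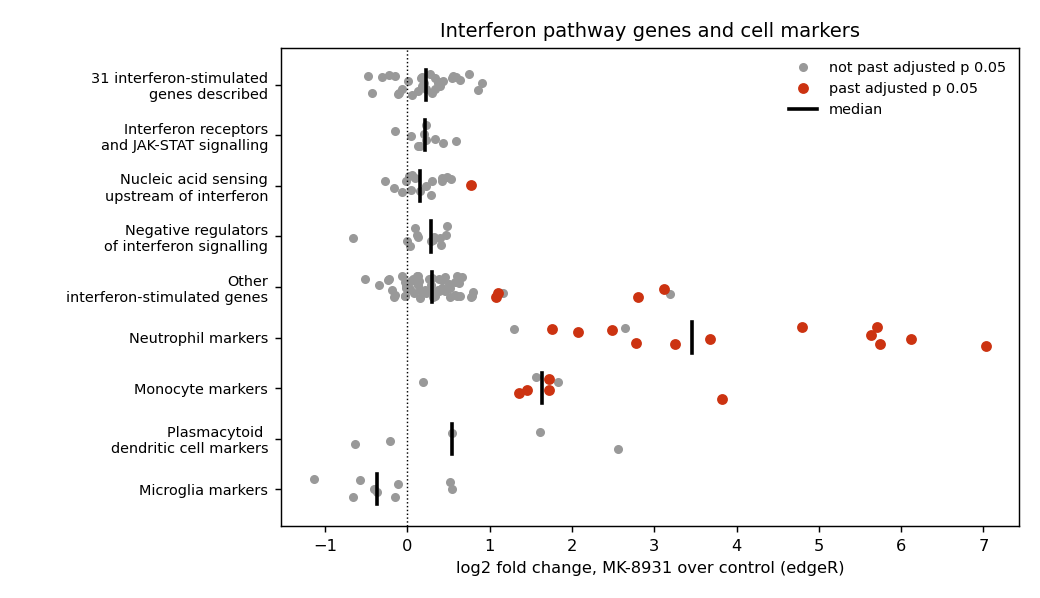
Each point is a tested gene at its fitted log2 fold change, MK-8931 over control, in the 31 interferon-stimulated genes, the pathway lists and lists of cell markers, with a bar at each median and genes past the threshold in red. Ligands, with 1 tested gene, are not plotted. The 5 interferon lists plotted have medians from 0.16 to 0.29, against 3.46 for neutrophil and 1.64 for monocyte markers.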

How the data were processed

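The deposited gene counts are whole numbers, not normalized. The deposited FPKM values are the authors' own and are those counts divided by gene length and scaled within each library, so they served for levels between genes and were not tested. The authors' deposited table also holds counts scaled by size factors, log2 ratios and p-values raw and adjusted, with no test named. The submitters' processing notes name CASAVA and mm9, but 98.3% of the gene coordinates, and those of all 31 genes, equal GRCm38 (GENCODE M21). For the aligner, counter and strand setting the entry is: not given in the sources used here.

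The test was that of edgeR 4.0.16 (R 4.3.3): filterByExpr (minimum count 10), TMM factors, and a two-sided robust quasi-likelihood F test with Benjamini-Hochberg adjustment at 0.05. CPM is TMM-scaled, and SE is the absolute log2 fold change over the square root of F. On simulated counts (13486 genes tested) it found 13 of 79 genes at a true 1.5-fold change, 31 of 57 at 2-fold and 51 of 60 at 4-fold, and 2 of its 97 calls were false. Named were the 31 genes and, from each pathway list, genes past the threshold and up to 2 in each direction with the smallest p; 1 gene this rule names is not reported here. DESeq2 1.42.0 and limma 3.58.1 (voom) were alternatives. Genes and lists were chosen with earlier results of these data known.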

Additional observations from a re-analysis of the deposited data

How the results depend on the processing

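Of the 31 genes, 24 kept the sign of their log2 fold change under all 10 alternatives (19 higher, 5 lower) and 7 did not. For those 7, with each library left out, Ifit1 lay between −0.066 and 0.070, Ifit2 between −0.28 and 0.062, Ifih1 between −0.21 and 0.020, Mx1 between −0.32 and 0.24, Mx2 between −0.18 and 0.63, Cmpk2 between −0.15 and 0.42 and Ifi204 between −0.0061 and 0.089. With every gene kept, whatever its counts, Ifit1 was at −0.014. The median of the 31 lay between 0.21 and 0.29 with each library left out.

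The number of the 31 genes called higher was 0, and became 6 with no filter on low counts, 4 with DESeq2, 1 with limma-voom and 0 to 7 with each library left out, and the number called lower was 0 to 1 with each library left out. Over all genes, 120 rose and 19 fell. These became 366 and 176 with no filter, 262 and 95 with DESeq2, and 124 and 30 with limma-voom. With each library left out, 85 to 520 rose and 10 to 243 fell. The remaining library of a group is then assumed to vary like the other group.

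Both groups carry replicate numbers 1 and 2, but no label ties equal numbers to an animal or day, so the pairing was not used. Deviations from the group means of libraries with the same number had a correlation of 0.197 over 13932 genes. With the replicate number as a block, 8 of the 31 genes were called higher and 2 lower, and over all genes 468 rose and 275 fell. With this block Ifitm1 was no longer past the threshold (edgeR adjusted p = 0.128). In simulated counts at this depth most 1.5-fold changes were not recovered. The changed genes there were drawn at random from all genes that passed the filter. That rate is therefore not the rate for genes at the levels of these 31, which mostly differed by less than 1.5-fold.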

Other observations

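Close copies of the genes described had values of their own. Ifit3b, a copy of Ifit3, was at 6.25 and 7.72 CPM in controls against 6.21 and 3.53 CPM in the MK-8931 libraries (log2 fold change −0.52, SE 0.34, edgeR adjusted p = 0.685). Trim30d, a copy of Trim30a, was at 18.7 and 15.2 CPM in controls against 29.4 and 22.1 CPM in the MK-8931 libraries (0.60, SE 0.21, edgeR adjusted p = 0.308). Oas1g, a copy of Oas1a, was at 12.6 and 7.0 against 13.7 and 14.4 CPM (0.52, SE 0.29, edgeR adjusted p = 0.600), and Ifitm2, next to Ifitm3, at 72.4 and 60.9 against 90.9 and 98.2 CPM (0.51, SE 0.15, edgeR adjusted p = 0.201). These 4 genes were chosen after their values were seen.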
